A study of Bos taurus with 252 samples.

Results

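Cytotoxic lymphocytes, that is natural killer (NK) cells, CD8 T cells and part of the gamma delta T cells, kill infected cells by releasing granules. The 10 genes described here encode parts of that machinery and were taken by name from the count table, in which all 10 of 10 were present among 33282 genes. All 10 also passed the filter on low counts, as did 19056 genes in total. They are PRF1, GZMA, GZMB, GZMK and GZMM (the granule pore and its proteases), NKG7 and CTSW (granule-associated proteins), KLRD1 and NCR1 (NK receptors) and IFNG (interferon gamma).

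The blood came from 42 crossbred steers (castrated males, listed as Bos taurus), 6 in each of 7 treatment groups, sampled at 6 timepoints (day 0, day 3, day 7, day 14, day 21, day 56), with 1 library for each steer and timepoint. The negative control (NC) received no antimicrobial, and the others received a single subcutaneous administration of florfenicol (FLOR), the macrolides tildipirosin (TILD) and tulathromycin (TULA), enrofloxacin (ENRO), oxytetracycline (OXYT) or ceftiofur (CEFT) after the day 0 blood had been drawn. All steers, NC included, had been given tildipirosin, a trenbolone acetate and estradiol implant, antiparasitics and respiratory vaccines at a grow yard before arrival at the feedlot. After day 0 each treatment group occupied its own pen, NC was always processed first and OXYT last, and no animal was treated for disease, so treatment, pen and processing order cannot be told apart. The study judged breed by eye, with both Bos taurus and Bos indicus types recorded, and breed was not used here. The ages of the steers are not given in the sources used here.

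In a cytotoxic granule perforin (PRF1) forms pores in the membrane of the target cell, through which the granzymes, serine proteases with different cleavage preferences, enter and start cell death. KLRD1 (CD94) pairs with NKG2 proteins to form receptors for MHC class I, and NCR1 (NKp46) is an activating receptor and a widely used marker of bovine NK cells. Interferon gamma is the cytokine through which these cells and Th1 cells activate macrophages. In whole blood the genes are read against a large background of neutrophil, monocyte, B cell and helper T cell RNA.

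Library totals lay between 26073640 and 74110289 estimated reads (median 43608836), and expression is given in CPM, counts scaled to the library total. The genes differed in the number of reads behind their values. IFNG had a median of 12 estimated reads per library, fewer than 10 in 99 libraries and 0 in 22 libraries, where a count of 0 allows up to 3 reads. GZMK had a median of 107 and never fewer than 22, and the other 8 genes never fewer than 143. These are limits of counting error only. Transcript lengths are not part of the table, so levels are compared between samples of a gene and not between genes. Defining markers of T cells, B cells, gamma delta T cells, neutrophils, monocytes, platelets and erythroid cells were all measured, and hemoglobin genes took between 0.00405% and 25.5% of a library. GZMB, the KLRC and KLRA genes and the WC1 genes belong to families of related copies, and how reads were divided among copies is not known.

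The first question was whether the genes changed over the receiving period irrespective of treatment. Both NK receptors and GZMA fell, GZMB, GZMM and CTSW rose, and PRF1 fell by a smaller amount. Each day was compared with day 0 within steers by edgeR's quasi-likelihood test, averaged over the 7 groups with equal weight, at a false discovery rate (FDR) of 0.05. Of 50 gene and day values 32 were differentially expressed, 19 lower and 13 higher. These counts stand beside a blood transcriptome in which very many genes changed. On day 3, 1 gene rose and 3 fell, where 22% of all genes tested rose and 20.2% fell. On day 7, 2 rose and 3 fell (25.5% and 21.3% of all genes), and on day 14, 3 rose and 4 fell (33.8% and 31.2%). On day 21, 4 rose and 4 fell (33.6% and 32.8%), and on day 56, 3 rose and 5 fell (33.5% and 31.9%). In the test over all days together all 10 genes passed, as did 80.4% of all genes. The share of the 10 genes that changed was close to the share of all genes, and genes of the same machinery changed in opposite directions. In whole blood fewer cells of a type and less RNA per cell cannot be told apart.

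**Figure D1:**
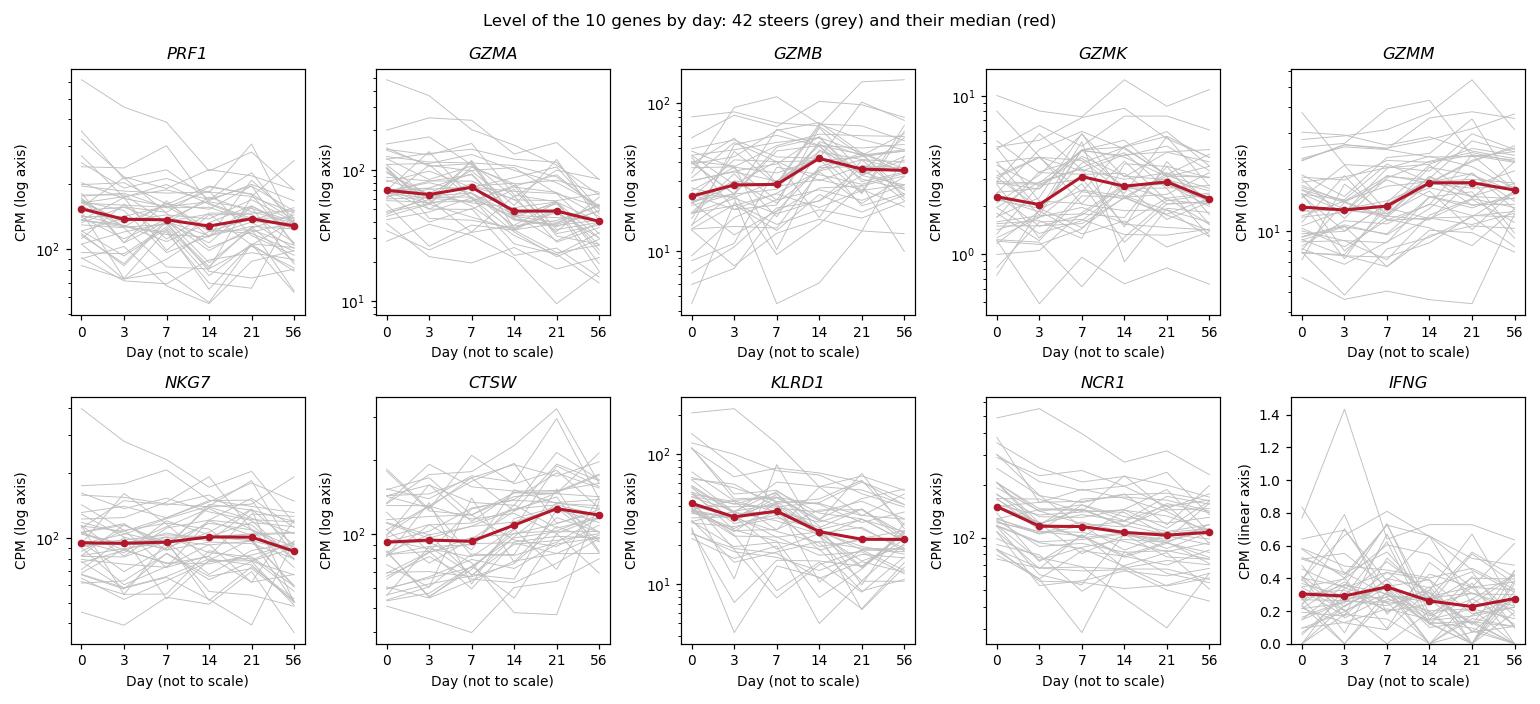
CPM of each of the 10 genes (vertical axis, logarithmic except for IFNG) on the 6 sampling days (horizontal axis, not to scale), with a grey line for each of the 42 steers and the median in red. KLRD1 and GZMA run downwards to day 56, GZMB, GZMM and CTSW run upwards, and IFNG stays at or below 1.43 CPM.

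KLRD1 was lower on each day after day 0. On day 0 its level in the 42 steers ranged from 22.4 to 208 CPM with a median of 41.9, and on day 56 from 10.5 to 53.9 with a median of 22.1. All 42 of 42 steers were lower on day 56 than on their own day 0, although the ranges of the 2 days overlapped. The log2 change was -0.58 ± 0.10 (SE) on day 3, -0.93 ± 0.10 on day 14 and -1.04 ± 0.10 on day 56 (FDR = 1.27e-18), a level of 0.486 times day 0.

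NCR1 fell early and then stayed low. It ranged from 75.3 to 487 CPM on day 0 (median 151) and from 43.2 to 230.1 on day 56 (median 107). The log2 change was already -0.45 ± 0.06 on day 3 and -0.59 ± 0.06 on day 56 (FDR = 6.99e-19). NCR1 was lower than on day 0 in 39 of 42 steers on both days. In sign, KLRD1 and NCR1 were below day 0 on each of the 5 days in 7 of 7 treatment groups and 3 of 3 sequencing lanes fitted alone. NC steers, which received no antimicrobial, were among them.

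The granule proteases did not move together. GZMA, a tryptase and one of the main proteases of NK cell granules, did not pass the test on days 3 and 7 and was lower from day 14. Its range was 28.6 to 486 CPM on day 0 (median 69.9) and 13.8 to 85.2 on day 56 (median 40.5), and 41 of 42 steers were lower on day 56. The log2 change was -0.60 ± 0.10 on day 14, -0.74 ± 0.10 on day 21 and -1.07 ± 0.10 on day 56 (FDR = 4.27e-21).

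GZMB, the protease that cleaves after aspartate and activates caspases, moved the other way. Its range was 4.46 to 80.5 CPM on day 0 (median 23.6) and 10.02 to 143 on day 56 (median 35.2), and 31 of 42 steers were higher. It was higher on each of the 5 days, with a log2 change of 0.26 ± 0.11 on day 3 (FDR = 0.0467), 0.69 ± 0.11 on day 14 and 0.64 ± 0.11 on day 56 (FDR = 7.37e-08). Fitted alone, GZMB was not differentially expressed on any day in FLOR or in OXYT, where day 14 came nearest (FDR = 0.0509).

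GZMM, a protease that cleaves after methionine or leucine and is abundant in NK and innate-like T cells, rose from day 14. Its range was 5.90 to 37.7 CPM on day 0 (median 13.04) and 7.87 to 37.1 on day 56 (median 15.8). The log2 change was 0.31 ± 0.07 on day 14, 0.40 ± 0.07 on day 21 and 0.33 ± 0.07 on day 56 (FDR = 3.12e-06). It was higher in 37 of 42 steers on day 14 and in 32 of 42 on day 56, and its log2 change was above 0 in 7 of 7 treatment groups on days 14, 21 and 56. Fitted alone, 1, 2 and 1 of these groups passed on those days. GZMM passed on no day in NC alone or in lane 1 alone. On day 56 its log2 change was 0.08 ± 0.17 in NC (FDR = 0.766) and 0.03 ± 0.13 in lane 1 (FDR = 0.913).

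GZMK, a tryptase found chiefly in memory CD8 T cells, showed only a transient difference. Its median was 2.30 CPM on day 0 and 3.09 on day 7, and by day 56 it stood at 2.23. It was higher on day 7 (log2 change 0.28 ± 0.10, FDR = 0.0160) and day 21 (0.23 ± 0.10, FDR = 0.0392) and did not pass on the other days.

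PRF1 was lower on each day by a smaller amount than the receptors. Its range was 83.98 to 612 CPM on day 0 (median 154) and 63.1 to 258 on day 56 (median 128). The log2 change was -0.19 ± 0.06 on day 3 and -0.36 ± 0.06 on day 14. It was smallest on day 21 (-0.14 ± 0.06) and reached -0.39 ± 0.07 by day 56 (FDR = 2.73e-08). On day 21, 21 of 42 steers were lower and 21 higher than on day 0, and on day 56, 34 were lower. In NC alone PRF1 was 0.12 and 0.05 above day 0 on the log2 scale on days 7 and 14, opposite in sign to the average over groups, and neither value passed the test.

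The granule-associated genes also differed from each other. CTSW (cathepsin W), a cysteine protease of NK and CD8 T cells, had a median of 92.5 CPM on day 0, 126.5 on day 21 and 119 on day 56. It was higher on day 14 (log2 change 0.22 ± 0.06), day 21 (0.43 ± 0.06) and day 56 (0.39 ± 0.06, FDR = 3.01e-09), in 32, 35 and 33 of 42 steers. NKG7, a granule membrane protein needed for degranulation, had medians between 86.5 and 101 CPM on all 6 days. It passed only on day 56, when it was lower (-0.23 ± 0.07, FDR = 0.00119) in 30 of 42 steers. In lane 3 alone its day 56 value was 0.00133, so that lane showed no decrease.

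IFNG did not pass on any single day against day 0, although it passed the test over the days together (FDR = 0.000560). Its median was 0.304 CPM on day 0, 0.347 on day 7 and then 0.227 on day 21. The nearest single value was day 21 (-0.40 ± 0.19, FDR = 0.0522), with 28 of 42 steers lower.

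**Figure D2:**
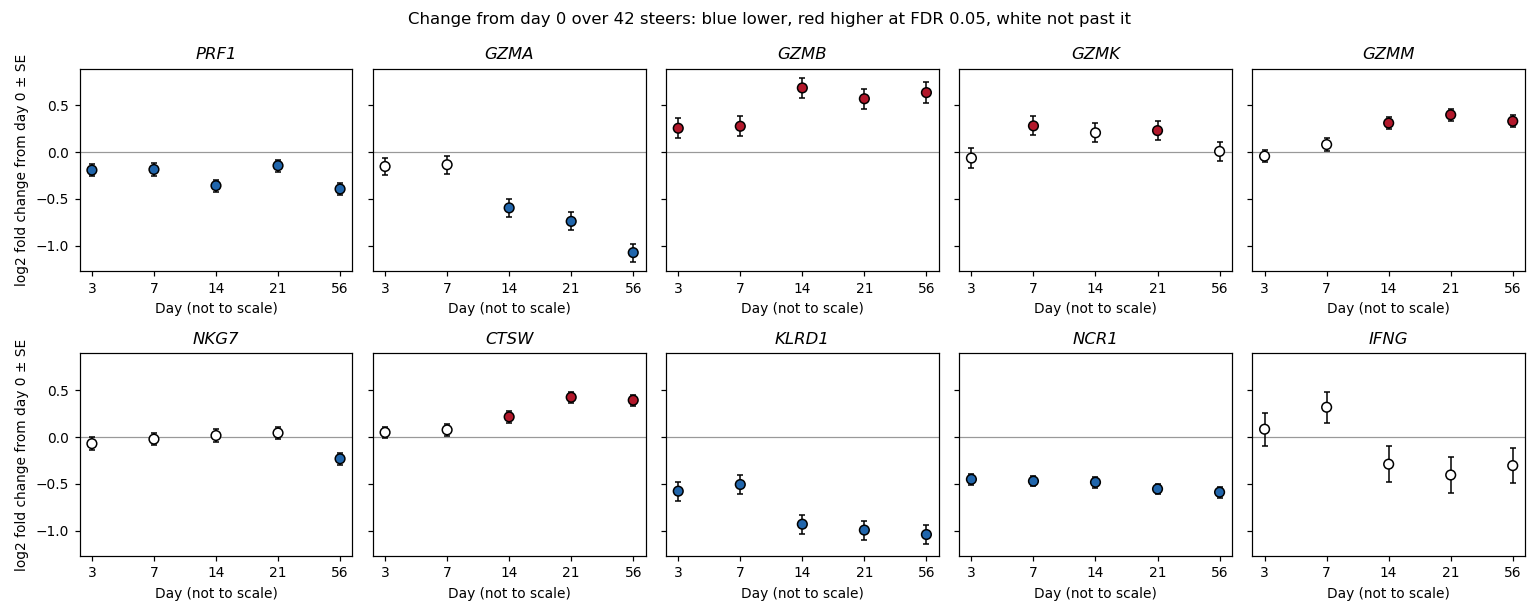
Log2 fold change of each gene from day 0 (vertical axis, ± SE) at the 5 later timepoints (horizontal axis, not to scale), over 42 steers. Blue points were lower and red points higher at an FDR of 0.05, and white points did not pass. KLRD1 and GZMA reach -1.04 and -1.07 on day 56, whereas GZMB reaches 0.64.

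Because these genes share a library, ratios between them do not depend on how libraries were scaled. The pairs were chosen after their levels had been seen, so they are given as a description. GZMB relative to GZMA was higher on day 56 than on day 0 in 42 of 42 steers, with a median log2 difference of 1.54 and a range of 0.12 to 4.70. GZMM relative to GZMA was also higher in 42 of 42 steers on day 56 (median 1.40). CTSW relative to NCR1 was higher in 42 of 42 on days 21 and 56 (median 1.04 on day 56). GZMA relative to KLRD1, which both fell, was higher than on day 0 in 30 of 42 steers on days 3, 7 and 14 and in 29 on day 21 (medians 0.39, 0.48, 0.33 and 0.24). On day 56 its median was 0.02, with a range of -1.32 to 1.25 and 23 steers higher and 19 lower. KLRD1 relative to NCR1 was lower in 37 of 42 steers on day 56 (median -0.54), so the receptors did not fall by the same factor.

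Other genes of the cytotoxic pathway were split as well. Of 12 other granule genes tested, 2 rose and 8 fell on day 56 with a median log2 change of -0.32, against a median of 0.02 over all genes tested. Of all genes tested 33.5% rose and 31.9% fell on that day, and the counts of the lists below stand beside these shares. CST7, an inhibitor of granule cathepsins, rose by 0.54 ± 0.05, and STXBP2, which helps granules to fuse, by 0.23 ± 0.04. STX11, its syntaxin partner in granule exocytosis, fell by 0.64 ± 0.06, and SRGN, the proteoglycan core that packs the granzymes, fell by 0.66 ± 0.08. Of 28 other NK receptors and their adaptors, 6 rose and 13 fell (median -0.31). CD247, the signalling chain shared by the T cell receptor and NCR1, rose by 0.61 ± 0.03, and CD7, an antigen of T and NK cells, by 0.92 ± 0.05. SH2D1B, an NK cell signalling adaptor, fell by 0.71 ± 0.07 and the inhibitory receptor TIGIT by 0.46 ± 0.05.

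Of 14 regulators of cytotoxic lineages, 5 rose and 6 fell on day 56 (median -0.05), beside 33.5% and 31.9% of all genes. ZNF683 (Hobit) rose by 0.51 ± 0.05 and STAT4, which signals downstream of interleukin-12, by 0.27 ± 0.03. ZEB2, a factor of terminally differentiated NK and CD8 T cells that is also abundant in monocytes, fell by 0.75 ± 0.05, and PRDM1 (Blimp-1) by 0.69 ± 0.06. Of 10 chemokines and homing receptors 3 rose and 5 fell (median -0.15), among them CXCR3 at 0.41 ± 0.05 and CX3CR1 at -0.54 ± 0.06.

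Around IFNG, 13 genes that act upstream of it (cytokines and receptors for IL-12, IL-15 and IL-18) gave 4 higher and 7 lower on day 56 (median -0.38). IL2RG, the shared cytokine receptor chain, rose by 0.35 ± 0.03, whereas IL12B fell by 0.79 ± 0.11 and IL12RB2, a chain of its receptor, by 0.55 ± 0.08. Of 14 genes of the interferon gamma receptor and response, 1 rose and 8 fell (median -0.38). CIITA, the activator of MHC class II genes, rose by 0.45 ± 0.04, JAK2 fell by 0.84 ± 0.06 and IFNGR1 by 0.44 ± 0.04. Many of these genes are expressed in monocytes and neutrophils too.

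Markers of the other blood cells moved over the same days. On day 56, 9 of 11 T cell markers were higher and 0 lower, and their summed level had a median of 2116 CPM on day 0 (range 1733 to 3176) and 3042 on day 56 (2285 to 4172). All 7 gamma delta T cell markers were higher, with a summed median of 278 and 593 CPM, and 6 of 7 B cell markers were higher, with 1726 and 2156. Of 9 neutrophil markers 0 were higher and 8 lower, with a summed median of 3970 CPM on day 0 and 2882 on day 56, and of 8 monocyte markers 1 was higher and 6 lower (2384 and 1815). For CD8 T cells 1 marker was higher (CD8B, 0.26 ± 0.06) and 1 lower (CD8A, -0.56 ± 0.23), with a summed median of 176 and 186 CPM. Of 6 eosinophil and basophil markers 4 were higher and 1 lower, and of 6 platelet markers 1 was higher. Erythroid markers were higher on days 14 and 21 (7 of 7), when their summed median reached 31890 and 35398 CPM against 2334 on day 0, and on day 56, 1 of 7 was higher. The part of these shifts in the results for the 10 genes was not tested. The median log2 shift of all genes reached 0.03 on day 7, both in the scaling used here and with globin genes left out before scaling.

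The next question was whether a treatment changed the genes relative to NC on the same day. None of the 360 tests (10 genes, 6 treatments, 6 days) passed an FDR of 0.1 in edgeR's quasi-likelihood test, where 0.694% of all gene tests did. At an unadjusted p below 0.05 the number was 50 of 360, beside 10.2% of all gene tests. These tests include day 0, when the blood was drawn before dosing, which cannot show a treatment effect. On day 0 the number was 3 in FLOR, 2 in TILD, 1 each in CEFT and TULA and 0 in ENRO and OXYT. With edgeR's likelihood ratio test 7 passed the FDR (0.922% of all gene tests), and with DESeq2 9 (3.37%). KLRD1 and GZMB had no test with an unadjusted p below 0.05. IFNG had 20 of 36, all lower than NC, and GZMK had 13 of 36, all lower. GZMM had 5, PRF1 4, NKG7 and CTSW 3 each, and GZMA and NCR1 1 each. The day 0 tests among these were IFNG in CEFT, FLOR, TILD and TULA, GZMK in FLOR and TILD, and GZMM in FLOR.

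The smallest FDR belonged to GZMK on day 3 in FLOR. Its 6 NC steers ranged from 1.75 to 5.24 CPM (median 3.32) and the 6 FLOR steers from 0.487 to 1.85 (median 1.42), so the groups overlapped only slightly. The log2 difference was -1.28 (FDR = 0.103), and on day 0, before dosing, it was already -0.73 (FDR = 0.955). For IFNG the smallest was CEFT on day 3 (-1.65, FDR = 0.114). There the NC steers ranged from 0.342 to 1.43 CPM (median 0.548), and the CEFT steers from 0 to 0.662 (median 0.143). The likelihood ratio test called IFNG in TULA on day 14 at -2.19 (FDR = 0.00571), which in the quasi-likelihood test had an FDR of 0.313. The TULA steers then lay between 0 and 0.183 CPM and the NC steers between 0.325 and 0.728.

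IFNG lay below NC in several groups already on day 0, before the assigned treatments. On day 0 the NC steers ranged from 0.347 to 0.767 CPM (median 0.517), the FLOR steers from 0.0548 to 0.389 (median 0.181), and the TULA steers from 0 to 0.517 (median 0.131). The day 0 log2 difference from NC was -1.45 in FLOR, -1.39 in TULA, -0.90 in TILD and -0.67 in CEFT, each with an unadjusted p below 0.05 and an FDR between 0.525 and 0.913. On day 7, by contrast, the NC median was 0.320 CPM, and no treatment had an unadjusted p below 0.05 for IFNG. In sign, IFNG was lower than NC in 32 of 36 comparisons, those of day 0 included, and the comparisons of a day share its NC libraries. GZMK was also lower than NC on day 0 in FLOR (-0.73) and TILD (-0.83), and GZMM in FLOR (-0.79). Each of these had an unadjusted p below 0.05 and an FDR between 0.619 and 0.984.

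Averaged over the 6 days, with steer as a random block in limma voom, 3 of the 10 genes were lower in FLOR than in NC at an FDR of 0.05, where 0.777% of all genes were lower. Over the 6 treatments together these were the only 3 calls of 60 tests, beside 1.95% of all gene tests. IFNG differed by -1.84 ± 0.50 on the log2 scale (FDR = 0.0267), GZMK by -0.89 ± 0.25 (FDR = 0.0406) and GZMM by -0.66 ± 0.19 (FDR = 0.0445). These averages include day 0, before florfenicol was given, and differences between the groups of steers cannot be told apart in them from a response to the drug. On day 0 alone the log2 difference of FLOR from NC was -1.45 for IFNG, -0.73 for GZMK and -0.79 for GZMM. With days 3 to 56 only, IFNG and GZMK passed (both FDR = 0.0469) and GZMM did not (FDR = 0.0754). After ComBat_seq adjustment by lane none passed (FDR = 0.516, 0.465 and 0.164), with log2 differences of -1.26, -0.63 and -0.60. The fit assumed the same correlation within steers for all genes. Differences between steers took 80.8% of the variance of GZMM and 65.3% of that of GZMK, against a median of 45.7% over all genes. For GZMM and GZMK the SE and FDR of this fit may therefore be too small. For IFNG the share was 27.02%.

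The steer means over 6 days show how far the groups were apart. For IFNG the NC steers lay between 0.362 and 0.821 CPM (median 0.442), and the FLOR steers between 0.142 and 0.287 (median 0.170). TULA steers lay between 0.131 and 0.293 and TILD steers between 0.226 and 0.295. Each of these 3 groups was wholly below NC, a pattern that 0.189% of all genes showed in FLOR, 0.142% in TULA and 1.12% in TILD. ENRO steers, all sequenced on lane 1 as the NC steers were, lay between 0.296 and 0.555 CPM and overlapped NC. CEFT (0.153 to 0.530) and OXYT (0.159 to 0.451) overlapped it as well.

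In order of the group medians of IFNG, NC (0.442) and ENRO (0.403) stood first, followed by CEFT (0.280), TILD (0.262), OXYT (0.228), TULA (0.204) and FLOR (0.170), and each neighbouring pair overlapped in range. The difference of TULA from NC was -1.68 ± 0.49 (FDR = 0.0780) and that of TILD -0.99 ± 0.48 (FDR = 0.214). Lane and treatment cannot be told apart for CEFT, OXYT, TILD and TULA, none of which had a steer on the lane of NC. In FLOR 2 steers, replicates 3 and 4, shared lane 1 with NC, and their IFNG means of 0.142 and 0.287 CPM were below all 6 NC steers. Median library totals in estimated reads were 43572658 in NC, 45825645 in FLOR, 45921682 in TULA and 33575799 in TILD.

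For GZMK the NC steers lay between 2.24 and 5.85 CPM (median 3.98) and the FLOR steers between 0.796 and 3.09 (median 2.24), with overlap. The 2 FLOR steers on lane 1 had 0.796 and 2.90 CPM, 1 below and 1 within the NC range. TILD had a similar range (1.41 to 3.42 CPM) and a difference of -0.78 ± 0.27 (FDR = 0.0646), and on day 0 alone of -0.83. For GZMM the NC range of 8.36 to 35.2 CPM covered most of the FLOR range of 6.11 to 17.9, and 3 NC steers, replicates 1, 5 and 12, stood above every FLOR steer.

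Which of these differences passed depended on the steers included. With each of the 12 FLOR and NC steers left out in turn, between 0 and 3 genes passed in FLOR. None passed without NC replicate 1 or NC replicate 12. The 1 call was IFNG without FLOR replicate 6 or NC replicate 5, GZMM without FLOR replicate 3, and NKG7 without FLOR replicate 10. NKG7, which differed by -0.54 ± 0.17 with all steers (FDR = 0.0782), ranged from -0.69 to -0.41 and passed in 2 of 12 fits, the other one without NC replicate 13 beside IFNG and GZMM. IFNG stayed between -2.01 and -1.60 and passed in 8 of 12 fits, GZMK stayed between -1.04 and -0.61 and GZMM between -0.91 and -0.46, each passing in 5 of 12.

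**Figure D3:**
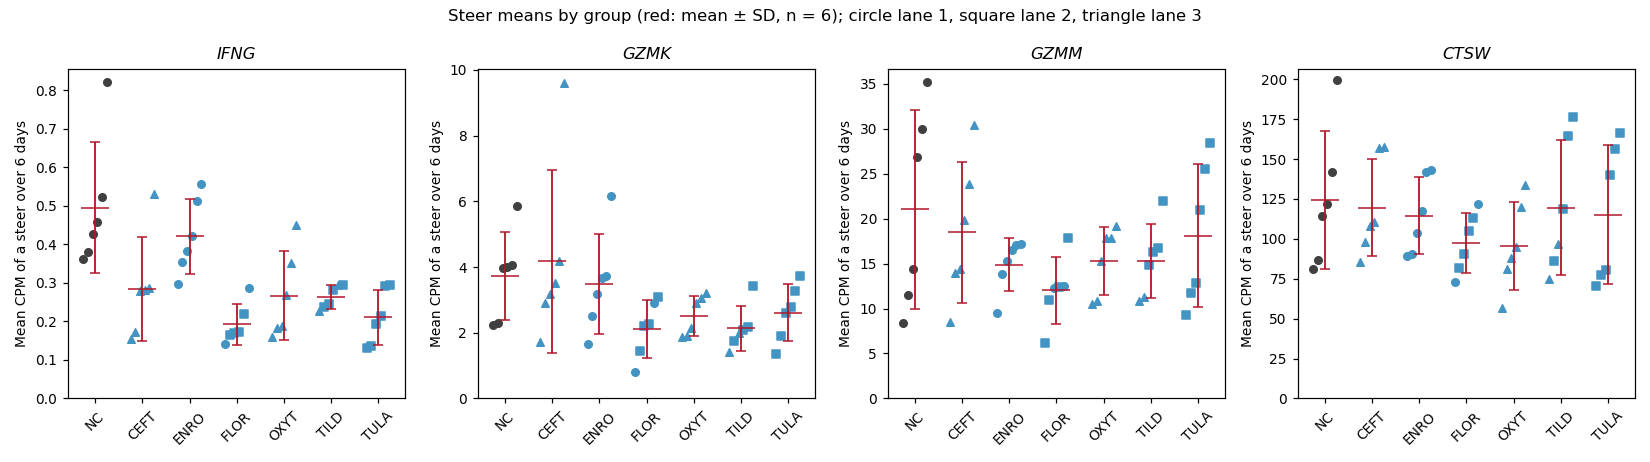
Mean CPM of each steer over 6 days (vertical axis) for IFNG, GZMK, GZMM and CTSW in the 7 groups (horizontal axis), with the mean ± SD of 6 steers in red and the sequencing lane as the marker shape. IFNG in FLOR, TILD and TULA lies below the lowest NC steer at 0.362 CPM, and in the other 3 genes FLOR overlaps NC.

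Some other genes of cytotoxic cells were lower in FLOR over all days, where 0.777% of all genes were lower and 0.782% higher. Of 28 other NK receptors 5 were lower and 0 higher, including TIGIT (-0.54 ± 0.11) and KLRG1 (-2.24 ± 0.43), inhibitory receptors of NK and T cells. Of the 10 chemokines and homing genes 3 were lower, including CXCR6 (-0.63 ± 0.14) and CX3CR1 (-0.63 ± 0.15), receptors of tissue-homing and of circulating cytotoxic cells. HOPX, a regulator found in differentiated cytotoxic cells, was lower by -0.65 ± 0.15, as 1 of 14 lineage regulators, and 0 of 12 other granule genes passed. Upstream of IFNG, IL12RB1 was lower (-0.34 ± 0.09), and 0 of 14 interferon gamma response genes passed. Several of these genes were also lower than the same NC steers in other groups, TIGIT in OXYT (-0.42 ± 0.11) and TULA (-0.45 ± 0.11), IL12RB1 in OXYT (-0.34 ± 0.09) and HOPX in CEFT (-0.50 ± 0.15), so they were not particular to FLOR. The summed CD8 markers were 138 to 280 CPM in the NC steers (median 220) and 131 to 272 in the FLOR steers (median 151), and neither of the 2 genes passed. The summed gamma delta markers were 292 to 642 CPM (median 337) in NC and 357 to 727 (median 561) in FLOR, with SOX13 higher (0.75 ± 0.18). Summed B cell markers were 1358 to 2380 CPM (median 1594) and 1878 to 2660 (median 2241), with CD79A higher (0.37 ± 0.11). The summed T cell markers had medians of 2833 and 2697 CPM, with CD6 lower (-0.55 ± 0.10), and neutrophil markers 2974 and 2992. The part of these cell markers in the lower IFNG, GZMK and GZMM was not tested.

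To take out what differed before dosing, the change from day 0 was compared between each treatment and NC within steers. Of 300 tests 1 passed an FDR of 0.1, where 0.75% of all gene tests did, and 25 had an unadjusted p below 0.05, beside 8.82% of all gene tests. The 1 call was CTSW in FLOR on day 14, which was lower by -0.99 ± 0.23 (FDR = 0.0613), where 0.0892% of all genes were lower. From day 0 to day 14 CTSW went from 99.6 to 82.4, 151 to 94.3, 85.1 to 54.7, 92.0 to 47.8 and 82.2 to 65.4 CPM in FLOR replicates 10, 3, 4, 6 and 8, and from 81.2 to 126 in replicate 7. In the NC steers it went from 132 to 229, 104 to 121, 53.4 to 96.3, 59.98 to 101, 130.3 to 193 and 92.9 to 137 CPM. Thus 5 of 6 FLOR steers were lower on day 14 and all 6 NC steers were higher.

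The CTSW result was near the limit of the test. Fitted on the FLOR and NC libraries alone the value was -0.98 (FDR = 0.257), and with any of the 12 steers left out of that fit it ranged from -1.18 to -0.87 with FDR between 0.107 and 0.522. Against NC the change of CTSW in FLOR was -0.52 ± 0.23 on day 7 (FDR = 0.673) and -0.45 ± 0.23 on day 21 (FDR = 0.568). PRF1 (-0.85 ± 0.24, FDR = 0.163) and NKG7 (-0.71 ± 0.25, FDR = 0.357) had the next smallest p in FLOR on day 14 and did not pass. The timepoint:group interaction called 0 of 60 gene and treatment tests at an FDR of 0.05 by edgeR, where 2.98% of all gene tests were called. An unadjusted p below 0.05 was reached by 7 of the 60, beside 17.9% of all gene tests. CTSW in FLOR was nearest to the threshold (FDR = 0.0552). The change of IFNG from day 0 did not pass for any treatment.

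**Figure D4:**
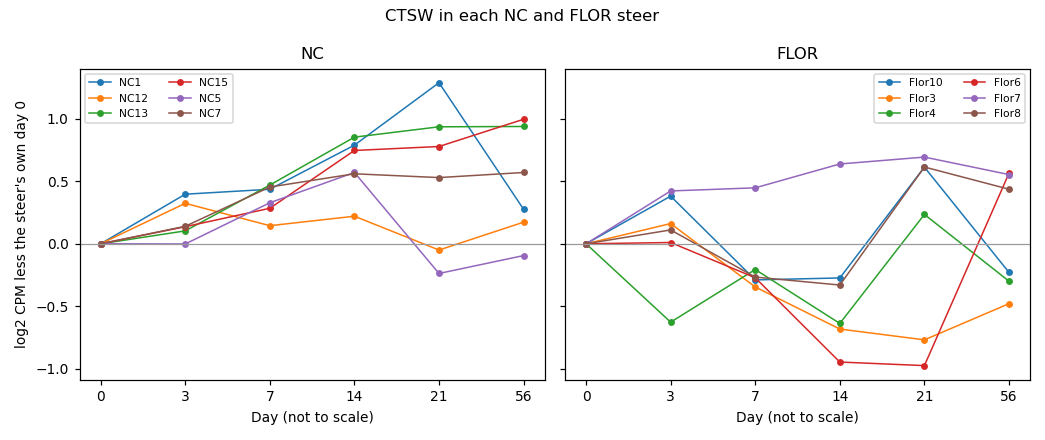
Log2 CPM of CTSW less the steer's own day 0 value (vertical axis) by sampling day (horizontal axis, not to scale) in the 6 NC and the 6 FLOR steers, a line for each. On day 14 all NC lines lie above 0, and all FLOR lines but that of replicate 7 lie below it.

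Much of the variation lay between steers. After removal of the mean of each treatment group on each day, differences between steers took 86.1% of the variance of log2 CPM of NCR1, 80.8% of GZMM, 73.7% of CTSW and 73.01% of GZMA, and between 65.3% and 71.1% for KLRD1, NKG7, PRF1, GZMB and GZMK. The median over all genes tested was 45.7%. IFNG, with few reads, had 27.02%. The steer mean over 6 days varied 12.1-fold from lowest to highest for GZMK, 9.54-fold for GZMA, 9.44-fold for KLRD1 and 3.53-fold for CTSW.

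TULA replicate 8 had the highest mean of all 42 steers for PRF1, GZMA, GZMB, NKG7, KLRD1 and NCR1. Its KLRD1 stood at 208 CPM on day 0, reached 225 by day 3 and dropped to 121 by day 7 and 52.8 by day 56. Its GZMA fell from 486 CPM on day 0 to 64.3 on day 56, while its GZMB rose from 80.5 to 143, so the opposite course of these proteases was also seen in this animal. Without it the day comparison gave 18 lower and 14 higher values. CEFT replicate 6 stood out for GZMK instead, with 7.37 to 12.6 CPM on the 6 days.

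The genes varied together across steers in blocks. Steer means of log2 CPM were correlated after the treatment group mean had been removed, with p from 100000 permutations and an FDR over the 45 pairs. Of these 21 passed an FDR of 0.05, all positive, and 17 passed by Spearman's rho. The correlations share library depth and blood composition. The share of pairs of other genes that would pass was not computed, so the counts do not set these genes apart from other genes. GZMA and KLRD1 had r = 0.84 and rho = 0.74 (both p = 1e-05, the smallest the permutations can give), and r = 0.77 without the 2 steers farthest from the median. PRF1 and NKG7 had r = 0.83 and rho = 0.80, with 0.79 without 2 steers, and KLRD1 and NCR1 r = 0.73 and rho = 0.69, with 0.69. PRF1 and CTSW had r = 0.70 and rho = 0.73 (0.68 without 2 steers), GZMM and CTSW r = 0.68 and rho = 0.65 (0.64), and GZMB and GZMM r = 0.62 and rho = 0.54 (0.56). The permutation p of these 6 pairs was at most 0.00045 for r and 0.00192 for rho.

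In contrast, GZMA had r = 0.02 with GZMM, 0.07 with CTSW and 0.10 with GZMB, none of which passed. The pairs among GZMA, KLRD1 and NCR1, which fell over time, had r of 0.61 to 0.84, and those among GZMB, GZMM and CTSW, which rose, 0.44 to 0.68. Between these sets, which were chosen after the values had been seen, r lay between 0.02 and 0.42. PRF1 and NKG7 passed with genes of both sets. GZMK passed with 0 of 9 genes and IFNG with 2, KLRD1 (r = 0.41, rho = 0.36) and GZMA (r = 0.41, rho = 0.37). Within each of the 3 lanes, of 14 steers each, 18 of the 21 pairs were positive in all 3. The exceptions were GZMA with NCR1 (r = -0.15 in lane 3), GZMA with NKG7 (-0.00204 in lane 3) and CTSW with NCR1 (-0.26 in lane 1). KLRD1 with NCR1 had r = 0.30 in lane 3, so the block of GZMA, KLRD1 and NCR1 was not seen alike in every lane. Without TULA replicate 8, 19 pairs passed, all among the 21, and NKG7 with GZMB and CTSW with NCR1 were the pairs lost.

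**Figure D5:**
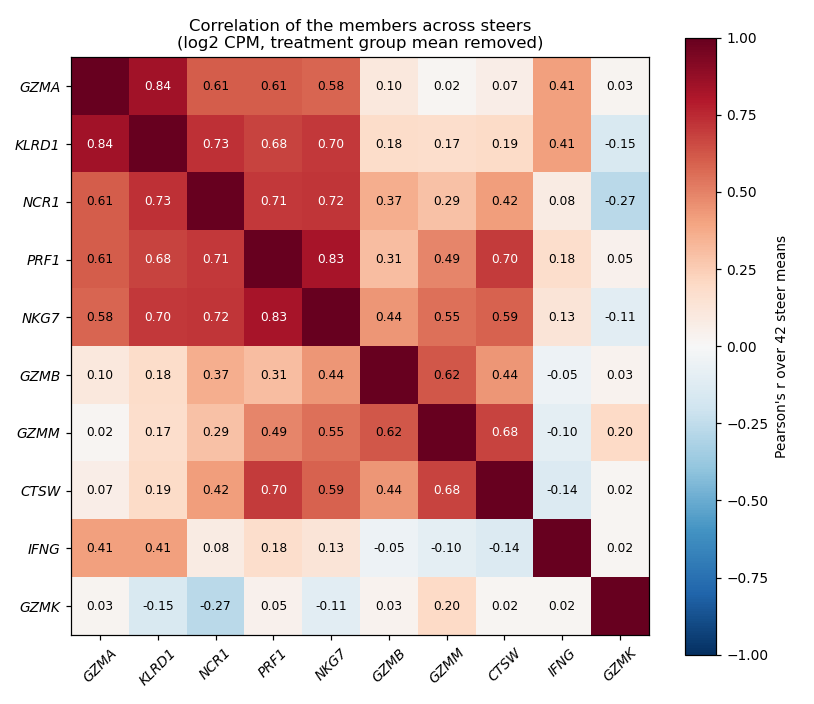
Pearson correlation of steer means of log2 CPM between the 10 genes over 42 steers, with the treatment group mean removed (colour and printed value). GZMA, KLRD1 and NCR1 form a block with r of 0.61 to 0.84, GZMB, GZMM and CTSW have r of 0.44 to 0.68, and GZMK and IFNG stand largely apart. In lane 3 alone GZMA and NCR1 had r = -0.15.

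As a description, the genes whose pattern was most like the mean of the 10 were sought among 13793 genes with at least 1 CPM. Over the 42 steer means these were ADGRG1 (r = 0.88), DPF3, RUNX3, B3GNT7, SAMD3, IDO1, NKG2C, CX3CR1, S1PR5 and PTPRF (r = 0.85). ADGRG1 (GPR56) is a receptor of cytotoxic lymphocytes, RUNX3 a transcription factor of CD8 T and NK cells, and S1PR5 a receptor for the exit of NK cells into blood. Over all libraries, with steer means and group by day means removed, they were CXCR6 (r = 0.86), CD96, CCL5, OASL, SYT11, HOPX, SAMD3, LOC100848575, LOC617313 and ADGRG1 (r = 0.72). SAMD3 and ADGRG1 were in both lists. Of the 10 genes themselves, PRF1 (r = 0.89) and NKG7 (r = 0.87) followed the mean most closely across steers and GZMK least (r = 0.13), each being part of that mean, and IFNG, also part of it, was below the 1 CPM minimum for this comparison.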

How the data were processed

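Whole blood was collected into PAXgene tubes, and stranded mRNA libraries were sequenced on 3 lanes. The authors trimmed the reads (Trimmomatic 0.39), aligned them to ARS-UCD1.3 with HISAT2 and assembled transcripts with StringTie 2.2.0. The deposited values are estimated counts per gene, derived by the authors with prepDE.py3 from transcript coverage and a read length of 150, without normalization or lane adjustment. The submitters' processing notes list HISAT2 2.1.1 and edgeR 3.36.0. No column was without a sample.

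Here TMM scaling in edgeR 4.0.16 (R 4.3.3) was applied. Of 33282 genes 19056 were tested, those that exceeded a CPM of 0.2, taken before that scaling, in 12 or more libraries. At the median library this minimum equals 8.72 reads. Days were compared by edgeR's quasi-likelihood test with steer as a fixed block and treatment by day cells (FDR 0.05), and the changes from day 0 (FDR 0.1) and the interaction (FDR 0.05) came from that fit. Treatment and NC steers of the same day, 12 libraries, were compared by the quasi-likelihood test (FDR 0.1). The group effect over all days used limma 3.58.1 (voom, duplicateCorrelation, FDR 0.05), in place of the mixed model of the study, whose random effect of breed was left out because the labels used for grouping do not give it. All FDR are Benjamini-Hochberg values, over all genes tested in a comparison except in 2 cases. For the correlations they are over the 45 pairs, and DESeq2 gave them for 599911 gene tests, where edgeR gave 686016. Alternatives used DESeq2 1.42.0 and ComBat_seq from sva 3.50.0. A treatment comparison on a day and a day comparison were also run on simulated counts with known changes. A group effect was run on simulated counts without a group change. For correlations, log2 CPM were computed with prior count 2, numpy 2.4.6 and scipy 1.17.1 (Python 3.11.15, pandas 2.3.3), with two-sided permutations of steers within groups. Figures were drawn with matplotlib 3.10.9.

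The 10 genes, the lists of other pathway genes and the cell markers were chosen with earlier results of these data known. All 10 genes are named in each comparison. Of each other list at most 2 genes per direction, those with the smallest p, are named in a comparison, and genes of like pattern are the 10 with the highest r. Steers were sampled repeatedly, so their own libraries form the replicate block. After subtraction of group and day means, libraries of the same steer had a median correlation of 0.342, those of different steers of a group -0.0820, and 42 of 42 steers had a mean above 0.1. Steers of different groups share only a number and were not paired. No library was left out, and 0 pairs of libraries held identical values.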

Additional observations from a re-analysis of the deposited data

Results flagged for a closer look

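In 13 of 70 sets of 6 steers (10 genes, 7 groups), the mean CPM of a steer over 6 days lay far from the others by Dixon's ratio at its 95% critical value. Chance gives about 1 in 20 for normally distributed values. The means were not log-transformed, and each value flagged was the highest of its set, so that rate may be too low here. The genes are also correlated, so the sets are not independent. TULA replicate 8 accounts for 6 of them. It had 360 CPM of PRF1 (the other 5 steers 97.5 to 183), 231 of GZMA (35.7 to 66.1), 98.9 of GZMB (19.99 to 37.1), 233 of NKG7 (66.2 to 111), 122 of KLRD1 (14.0 to 39.9) and 375 of NCR1 (60.7 to 166). NC replicate 12 had 178 CPM of GZMA (37.9 to 88.3 in the others), 75.9 of KLRD1 (18.2 to 39.8) and 0.821 of IFNG (0.362 to 0.523). FLOR replicate 10 had 67.2 CPM of KLRD1 (20.1 to 31.1), and FLOR replicate 7 had 72.5 of GZMB (17 to 36.3). CEFT replicate 6 had 9.60 CPM of GZMK (1.71 to 4.18), and CEFT replicate 8 had 0.530 of IFNG (0.153 to 0.286).

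The change of CTSW from day 0 to day 14 differed between FLOR and NC by -0.99 on the log2 scale, the only tested difference of that kind that passed.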

How the results depend on the processing

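Alternatives fitted on the whole series left most day results as they were. Of the differentially expressed gene and day values under DESeq2's size factors, no filter, no block, limma voom, ComBat_seq, globin removal and omission of TULA replicate 8, 211 kept direction and call, 13 kept direction only and 0 changed sign. Without the replicate block (steer), higher calls fell from 13 to 8 and lower ones from 19 to 16. In smaller fits lower calls were 7 in NC, 6 in ENRO, 11 in FLOR, 8 in OXYT and 11 in TULA. CEFT and TILD, each fitted alone, had more lower calls than any of these groups. Higher calls were 2 in lane 1 and 7 in lane 2, 5 in each of OXYT and TULA, 4 in each of NC and ENRO, 3 in each of CEFT and TILD and 0 in FLOR, each fitted alone with fewer samples. Signs were reversed for NKG7 on day 56 in lane 3 (0.00133) and OXYT (0.0228), PRF1 on days 7 and 14 in NC (0.12 and 0.0472), GZMK on day 21 in CEFT (-0.0256) and on day 7 in ENRO (-0.0283), GZMB on day 7 in ENRO (-0.15), on days 7 and 14 in FLOR (-0.31 and -0.0656) and on day 3 in OXYT (-0.0884), and CTSW on day 14 in FLOR (-0.40), none past the threshold.

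For treatment against NC on a day, 0 tests of the 10 genes passed, 7 with the likelihood ratio test and 9 with DESeq2. Other scaling, no filter, ComBat_seq with either test, a lane term and globin removal gave 0. Steers were not left out in turn there, because no gene passed. The 3 group effect calls became 0 after ComBat_seq, which has no group term and so also takes out group differences between lanes, and 16 without the steer block, which treats the 6 libraries of a steer as independent. Leaving out a FLOR or NC steer gave 0 to 3 calls in FLOR, among them NKG7 without FLOR replicate 10 (FDR = 0.0173) or NC replicate 13 (FDR = 0.00923), a gene that did not pass with all steers. The change of CTSW in FLOR on day 14 was -0.94 (FDR = 1) without the block, so that 0 calls were left, and -1.02 (FDR = 0.0957) after ComBat_seq. The pairing of libraries by steer changed no interaction call (0 in each fit). The correlations passed for 21 pairs, 22 with group means kept and 21 without globin genes. IFNG, at a median of 12 reads, is limited by depth, so that small differences in it were not detectable.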
